A study of Mus musculus with 26 samples.

Results

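Trophoblast is the lineage that forms the outer layer of the early embryo and later most of the placenta, and 10 genes that regulate it were followed here in embryonic stem (ES) cells, mouse embryonic fibroblasts (MEFs) and induced pluripotent stem (iPS) cells. The genes were taken by name: Cdx2, Gata3, Tfap2c, Elf5, Ets2, Plet1, Gata2, Ascl2, Hand1 and Gcm1. All 10 were found among the 15073 promoters that could be measured and among the 27670 named genes of the expression arrays. Tfap2c stands on the arrays under its older name Tcfap2c, and Plet1 as 1600029D21Rik, which the RefSeq gene table lists as a synonym of Plet1.

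The series compared iPS cells with ES cells and MEFs in histone marks and in gene expression, on 26 mouse samples. Promoter arrays were hybridised with chromatin immunoprecipitated for H3K4me3, which marks promoters that are active or poised, or for H3K27me3, the mark laid down by Polycomb proteins, against input DNA. Each mark was measured in 5 lines: the ES lines E14 and V6.5, a male fibroblast line (MEF1), a female one (MEF2) and 1 line of iPS cells, each line taking 2 arrays that carry different promoters. Expression was measured on 2 arrays each of V6.5 ES cells, which the labels call feeder dependent, of female MEFs and of iPS cells. No treatment or genotype is named in the labels, and the factors that made the iPS cells, their cell of origin and the number of clones are not stated in the labels. The labels call the second expression array of each group a duplicate and do not say whether its cells were grown separately. The p-values for RNA thus measure only the spread between these arrays.

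Cdx2 and Gata3 are transcription factors that act early in the trophectoderm, where Tfap2c, an AP-2 factor, is also needed. Elf5 and Ets2, both of the ETS family, help to maintain trophoblast stem cells, and Plet1 is a surface protein of trophoblast progenitors. Gata2 acts with Gata3 in trophoblast giant cells, the basic helix-loop-helix factors Ascl2 and Hand1 act in the spongiotrophoblast and in giant cells, and Gcm1 drives formation of the syncytiotrophoblast. ES cells keep most regulators of other lineages silent, and many of their promoters carry H3K27me3 there, often beside H3K4me3.

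On the promoter arrays the share of spots well above background was 93.57% to 99.96% in each channel. Correlations between lines over probes ran from 0.84 to 0.944 for H3K4me3 and from 0.617 to 0.953 for H3K27me3. The E14 arrays had the narrowest spread of H3K27me3 ratios, so the rank of a promoter within its line is given beside its ratio. The duplicate MEF expression array stood apart: 86.65% of its probes were well above background, against 45.98% to 58.37% on the 4 other arrays with such flags, and dim genes read high on it. For members whose calls change without it, the difference without it is also given. The scanner files filed under ES and MEF hold each other's values, and the deposited value table was followed. In that table the 10 markers of pluripotent cells summed to 311 and 390 times the 75th percentile of the array in ES cells, to 1.38 and 3.11 in MEFs and to 291 and 284 in iPS cells. The 10 fibroblast markers summed to 64.9 and 82.8 in ES cells, 1110 and 572 in MEFs, and 21.4 and 18.9 in iPS cells.

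Promoter windows of 300 bases, from 250 before to 50 after the start, were found in the RefSeq promoter table (GRCm38.p6) for 8 of the 10 genes. These are shown because the members fall into promoters rich and poor in CpG dinucleotides, the sites of CpG islands. Over all 32851 windows of the table the median was 7 CpGs, with quartiles at 3 and 20. The windows nearest the start used on the arrays are printed below for 4 members on the strand of the gene, 5′ to 3′, with each CpG in capitals and, in Plet1, also the TATA box TATAAA.
Plet1: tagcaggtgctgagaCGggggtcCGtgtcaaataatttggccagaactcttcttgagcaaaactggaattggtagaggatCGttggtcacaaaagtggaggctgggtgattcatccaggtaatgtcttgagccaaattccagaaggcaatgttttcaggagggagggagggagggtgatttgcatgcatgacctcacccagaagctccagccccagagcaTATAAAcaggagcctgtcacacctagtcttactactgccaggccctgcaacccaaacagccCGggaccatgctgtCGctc
Elf5: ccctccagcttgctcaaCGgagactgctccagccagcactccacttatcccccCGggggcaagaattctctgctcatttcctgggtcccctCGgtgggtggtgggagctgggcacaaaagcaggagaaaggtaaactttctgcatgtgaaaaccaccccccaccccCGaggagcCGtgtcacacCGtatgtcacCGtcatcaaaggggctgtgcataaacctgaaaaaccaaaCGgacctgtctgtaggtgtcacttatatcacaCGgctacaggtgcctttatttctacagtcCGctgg
Cdx2: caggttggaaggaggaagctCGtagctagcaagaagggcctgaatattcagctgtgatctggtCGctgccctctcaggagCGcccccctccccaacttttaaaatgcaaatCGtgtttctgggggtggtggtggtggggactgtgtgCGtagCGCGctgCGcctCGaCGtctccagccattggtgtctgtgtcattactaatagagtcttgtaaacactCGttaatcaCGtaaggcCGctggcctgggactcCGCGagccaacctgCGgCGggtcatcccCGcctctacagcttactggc
Gata2: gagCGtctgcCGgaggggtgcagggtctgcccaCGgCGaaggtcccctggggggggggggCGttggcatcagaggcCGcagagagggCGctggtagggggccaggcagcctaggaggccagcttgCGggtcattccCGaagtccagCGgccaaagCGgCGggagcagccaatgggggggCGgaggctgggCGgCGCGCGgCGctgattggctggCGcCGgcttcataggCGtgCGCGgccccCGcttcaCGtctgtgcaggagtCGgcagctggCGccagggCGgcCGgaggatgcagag
The Plet1 window (chr9:50494275-50494574, plus strand) holds 5 CpGs and the Elf5 window (chr2:103423818-103424117, plus strand) 10. The Cdx2 window (chr5:147307200-147307499, minus strand) holds 18 and the Gata2 window (chr6:88198414-88198713, plus strand) 29. Of the windows not printed, Gcm1 holds 1 CpG, Gata3 22, Ascl2 23 and Ets2 30. A second, upstream window of Gata2 holds 32 and a second window of Elf5 holds 3.

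For Hand1 and Tfap2c the array's own promoter probe nearest the start is shown in place of a window, as the array file writes it, with CpGs in capitals.
Hand1: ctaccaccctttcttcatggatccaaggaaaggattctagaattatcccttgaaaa
Tfap2c: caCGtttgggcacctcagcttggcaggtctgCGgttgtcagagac
The Hand1 probe lies at chr11:57913811-57913866 and the Tfap2c probe at chr2:172342005-172342049 in the coordinates of the arrays (build not given in the sources used here). They sit 122 and 151 bp upstream of the start used for their gene.

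Of 7 motifs searched on both strands, the TATA box (TATAAA) was found in the Plet1 window alone among the members, with its first base at -30, and in 13.6% of all windows. The GC box (GGGCGG) was found in both windows of Gata2 and in those of Gata3, Ets2 and Ascl2, against 35.7% of all windows. The AP-2 motif (GCCNNNGGC) occurred in the windows of Cdx2, Gata2 (downstream window) and, at 3 positions, Gata3, against 16.6% of all windows. The CDX motif (TTTATG) was found in the Elf5 window printed above and in 11.9% of all windows. The E-box (CANNTG) is common, with 72.3% of all windows holding it. It was found in every member window except those of Ets2 and the upstream window of Gata2. Neither the GATA motif (AGATAA, 11.2% of all windows) nor the ETS motif (CCGGAAG, 8.86%) was found in a member window. These are matches of letters in 300 bases and were not tested as binding sites. Probes of the array matched inside 7 of the 8 members' windows. They placed the array start within 80 bp of the RefSeq start for Cdx2, Elf5, Gcm1, Gata2, Plet1 and Ascl2, and 602 bp downstream of it for Gata3.

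Among the members, RNA was called different only between MEFs and the pluripotent cell types. Tfap2c and Plet1 were lower in MEFs than in ES cells and higher in iPS cells than in MEFs, while Gata2 was higher in MEFs than in ES cells. Levels are log2 of the signal relative to the 75th percentile of the array, and because probes differ in response they are compared within a gene only. A gene was called where limma gave an adjusted p (Benjamini-Hochberg, across the 17344 genes tested) under 0.05 and the change was at least 2-fold. Of the 10 members, 8 passed the filter on dim probes. Elf5 and Gcm1 did not and were not tested. Hand1 and Gata3 passed only through the first iPS array, so the filter favoured high iPS values in these genes. This bears on the Hand1 call between iPS cells and MEFs counted below. Between MEFs and ES cells 3 of the 8 were called, 1 higher and 2 lower in MEFs, where 32.8% of all genes tested were called (15.5% higher and 17.3% lower). Between iPS cells and MEFs 3 of the 8 were called, all higher in iPS cells, where 34.4% of all genes were called and 17.7% were higher. The same MEF arrays serve both comparisons. Between iPS cells and ES cells limma called none of the 8 and 0.15% of all genes, while 2 of the 8 members, Gata2 and Ets2, had an unadjusted p under 0.05, as did 15.5% of all genes. The RNA comes from bulk cultures, in which fewer cells of a type and less RNA per cell cannot be told apart.

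**Figure D1:**
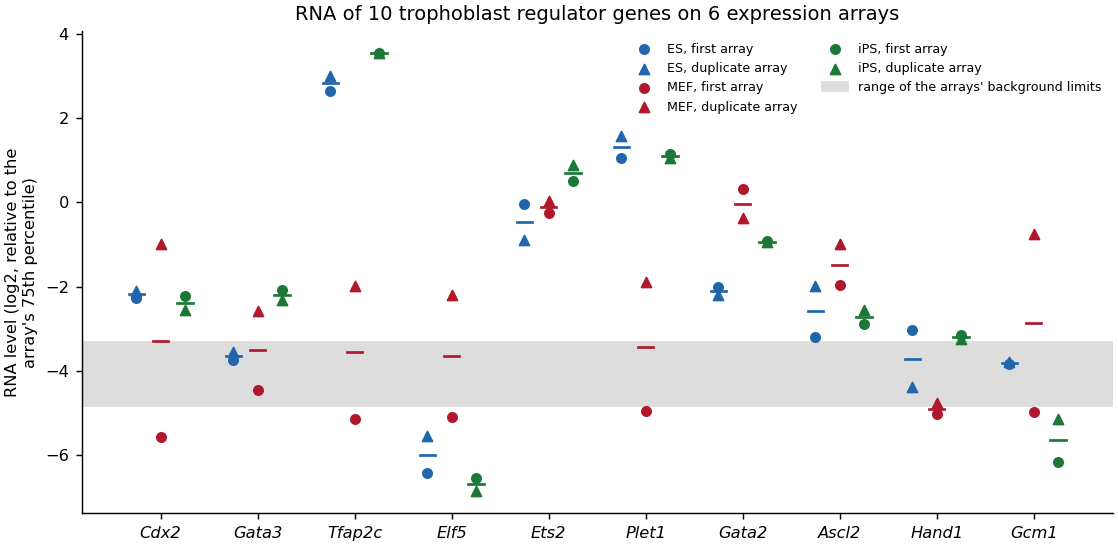
RNA level of each of the 10 genes (log2 relative to the 75th percentile of the array) on the first array (circles) and duplicate array (triangles) of ES cells, MEFs and iPS cells, with the group mean as a bar and the range of the arrays' background limits, -4.85 to -3.31, in grey. Tfap2c and Plet1 lie high in ES and iPS cells and low on both MEF arrays, and the MEF arrays lie far apart for Cdx2, Gcm1, Tfap2c, Plet1 and Elf5.

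Among the early trophectoderm factors, Tfap2c had levels of 2.66 and 3 on the ES arrays, -5.15 and -1.98 on the MEF arrays and 3.55 on both iPS arrays. The groups did not overlap, and the lower level in MEFs held on each MEF array, of which 1 read the probe well above background. MEFs minus ES cells was -6.40 ± 0.95 log2 units (SE, n = 2 arrays a group), with a limma adjusted p of 0.00375. No fold is given, as the first MEF array was below background. iPS cells lay 7.12 ± 0.95 above MEFs (adjusted p = 0.00235). Without the duplicate MEF array the 2 differences were -7.98 and 8.70. The difference between iPS and ES cells was 0.72 ± 0.95 (adjusted p = 0.762).

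Cdx2 read -2.26 and -2.10 in ES cells, -2.22 and -2.55 in iPS cells, and -5.58 and -0.99 on the first and duplicate MEF arrays. The MEF arrays thus fell on either side of the ES and iPS values, and no difference was called (MEFs minus ES cells -1.11 ± 1.32, limma adjusted p = 0.548). Without the duplicate MEF array the difference was -3.41, and without the first MEF array it was 1.19. Each of these fits left 1 MEF array, with no spread measured within MEFs. Cdx2 RNA in MEFs therefore has no settled direction in these arrays. Between iPS and ES cells the difference was -0.20 ± 1.32, with the probe well above background on every array that carries such a flag in these groups.

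Gata3 was at -3.74 and -3.55 in ES cells, -4.45 and -2.58 in MEFs, and -2.07 and -2.33 in iPS cells. Both iPS arrays lay above all 4 others. The gene was well above background on 1 of 2 ES arrays and 1 of 2 MEF arrays. It therefore passed the filter on dim probes only through the first iPS array, and the filter favoured a high iPS value. The difference from ES cells was 1.44 ± 0.64 log2 units and was not called (limma adjusted p = 0.349). When only the ES and iPS arrays were fitted it passed (adjusted p = 0.0255). Against MEFs the direction or the size of the difference turned on the MEF array used. MEFs minus ES cells was 0.13 with both, 1.07 without the first MEF array and -0.81 without the duplicate. iPS cells minus MEFs was 1.31 with both, 0.37 without the first and 2.25 without the duplicate. With quantile normalisation it was 2.62 (limma adjusted p = 0.0266).

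Ets2 was measured at -0.04 and -0.89 in ES cells, -0.24 and 0.04 in MEFs, and 0.52 and 0.89 in iPS cells. The iPS arrays were again the highest, by 1.17 ± 0.46 over ES cells (limma adjusted p = 0.304), and ES cells and MEFs overlapped. Elf5 was not well above background on either ES array (-6.44 and -5.56) or on the first iPS array (-6.54, with -6.86 on the duplicate). In MEFs it read -5.11 on the first array, below background, and -2.19 on the duplicate array, where dim genes read high.

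Plet1 is covered by a pair of probes. The brighter one read 1.06 and 1.58 in ES cells, -4.95 and -1.90 in MEFs, and 1.16 and 1.06 in iPS cells. ES and iPS arrays overlapped and both MEF arrays lay far below them, 1 of them above background. MEFs minus ES cells was -4.75 ± 0.93 log2 units (limma adjusted p = 0.0102), and iPS cells were 4.54 ± 0.93 above MEFs (adjusted p = 0.0112). Here too no fold is given, as 1 MEF array was below background. The second probe, 5' of the first in the gene, read -1.77 and -2.17 in ES cells, -5.43 and -1.87 in MEFs, and -2.74 and -2.43 in iPS cells. Its MEF arrays lay on either side of both iPS arrays and of 1 ES array. With the mean of both probes the differences were -3.22 (adjusted p = 0.0585) and 2.80 (adjusted p = 0.0823) and were not called. Without the duplicate MEF array the brighter probe gave -6.28 and 6.07. Leaving out either ES array also ended the call between MEFs and ES cells (adjusted p = 0.0751 and 0.0889).

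Gata2, by contrast, was lowest in ES cells, at -2.01 and -2.19, against 0.31 and -0.38 in MEFs and -0.92 and -0.94 in iPS cells, and it was well above background on every flagged array. The groups did not overlap. MEFs were 2.06 ± 0.43 log2 units (4.18-fold) above ES cells (limma adjusted p = 0.0124), and iPS cells 1.17 ± 0.43 above ES cells (adjusted p = 0.274), a difference that passed when the ES and iPS arrays were fitted alone (adjusted p = 0.0343). iPS cells minus MEFs was -0.89 and was not called (limma adjusted p = 0.15). Without the duplicate MEF array it was -1.24, with 1 MEF array left. A second Gata2 probe read -1.64 and -1.55 in ES cells, -0.59 and -1.52 in MEFs and -0.76 and -0.83 in iPS cells, a smaller difference, and the mean of both probes was not called (1.30, adjusted p = 0.0534). The call also ended without the first or the duplicate ES array (2.16 and 1.97) and when dim probes were kept (limma adjusted p = 0.0508). It ended too with normexp background correction (1.13), which for RNA was followed by quantile normalisation and left out the iPS duplicate.

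Of the factors of differentiated trophoblast, Hand1 read -3.04 and -4.39 in ES cells, -5.04 and -4.77 in MEFs, and -3.15 and -3.24 in iPS cells. It was not well above background on either MEF array, and was so on 1 of 2 ES arrays. It thus passed the filter on dim probes only through the first iPS array, and the filter favoured the call that follows. iPS cells were at least 1.4-fold above MEFs against the background limits, with a fitted difference of 1.70 ± 0.54 that narrowly passed (limma adjusted p = 0.0489). The call was lost without the first MEF array (adjusted p = 0.0669), without either iPS array (0.25 and 0.229), with normexp (0.183) and when dim probes were kept (0.0823).

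Ascl2 was at -3.19 and -1.99 in ES cells, -1.97 and -0.98 in MEFs and -2.89 and -2.55 in iPS cells. The MEF arrays were the highest, by 1.12 ± 0.58 over ES cells (limma adjusted p = 0.183), and no comparison was called. Leaving out 1 ES array gave 0.52 or 1.72, quantile normalisation 0.32 and normexp 0.15. iPS cells minus MEFs was -1.25, and -1.74 without the first MEF array, with 1 MEF array left. Gcm1 read -3.84 and -3.79 in ES cells, -4.99 and -0.75 in MEFs and -6.17 and -5.14 in iPS cells. It was well above background on 1 of 2 ES arrays, on 1 of 2 MEF arrays and not on the first iPS array.

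Across the 8 members tested, the median difference was -0.49 between MEFs and ES cells, 1.11 between iPS cells and MEFs, and 0.62 between iPS and ES cells. The medians over all genes were -0.11, 0.11 and -0.03.

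Promoter H3K4me3 was lower in MEFs than in ES cells at Plet1 and Tfap2c, while Gata3 and Ets2 carried it in all 5 lines. Values are the mean log2 ratio of immunoprecipitate over input of the probes within 1000 bp of the start, with each array centred on its median, and a ratio of at least 1 is called marked. Between MEFs and ES cells 2 of the 10 promoters were called, both lower in MEFs, at an adjusted p under 0.05 over all promoters. For comparison, 5.15% of all 15073 promoters were called, 3.1% lower in MEFs. Between iPS cells and MEFs limma called none of the 10 and 0.982% of all promoters, while 3 members (Plet1, Tfap2c and Hand1) had an unadjusted p under 0.05, as did 12.4% of all promoters. Between iPS and ES cells it called none of the 10 and 0% of all promoters, while 1 member, Plet1, had an unadjusted p under 0.05, as did 1.5% of all promoters. The fit takes the spread of the 1 iPS line to be that of the ES and MEF lines. Scan day and line cannot be told apart for the ES and MEF lines.

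**Figure D2:**
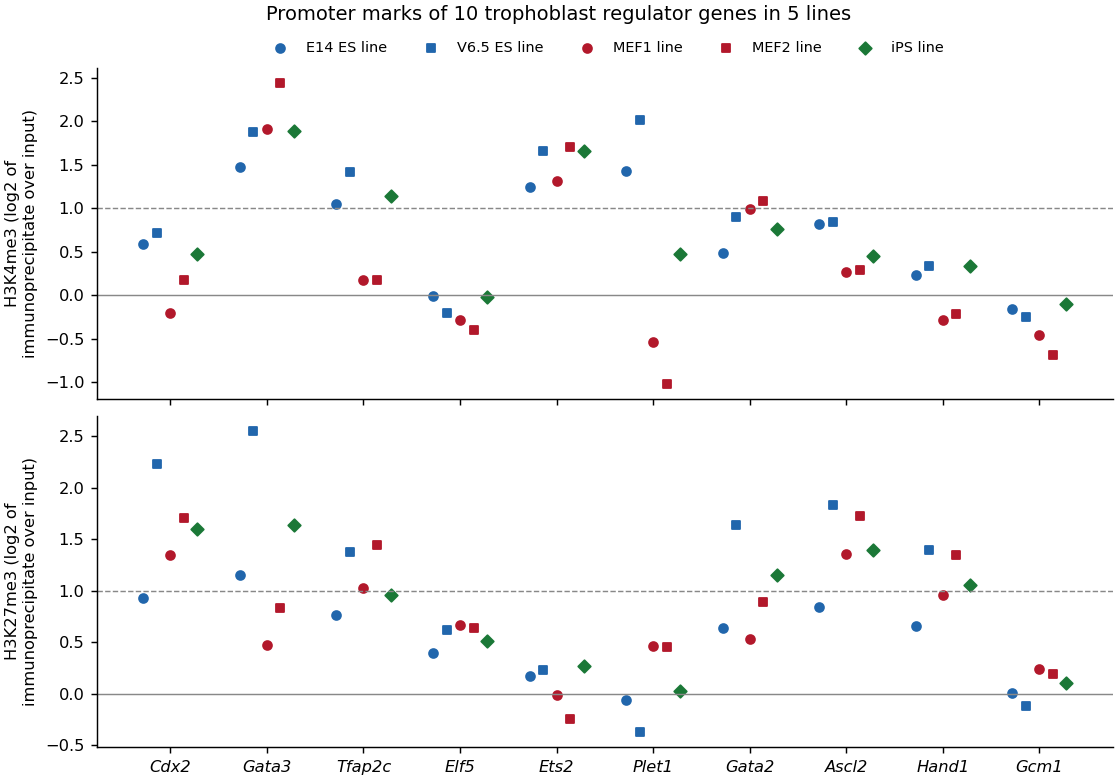
Mean log2 ratio of immunoprecipitate over input within 1000 bp of the start of each of the 10 genes, for H3K4me3 (top) and H3K27me3 (bottom), in each of the 5 lines, with the threshold of a marked promoter at 1 as a dashed line. For H3K4me3 the ES and MEF lines lie farthest apart at Plet1, and Elf5 and Gcm1 lie at or below 0 in all lines. For H3K27me3, Cdx2, Ascl2, Tfap2c and Hand1 lie above 0.6 in all lines and Ets2, Plet1 and Gcm1 below 0.5.

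Plet1 had H3K4me3 ratios of 1.43 in E14, 2.02 in V6.5, -0.54 in MEF1, -1.02 in MEF2 and 0.47 in iPS cells. Both ES lines were marked, neither MEF line was, and the iPS line lay between the groups. By rank, Plet1 stood at percentiles 71.6 and 77.5 of all promoters in the ES lines, 9.55 and 2.46 in the MEF lines and 34.5 in the iPS line. MEF minus ES lines was -2.51 ± 0.27 log2 units (SE, n = 2 lines a group; limma adjusted p = 0.00101). iPS cells differed by 1.25 ± 0.33 from MEFs (adjusted p = 0.128) and by -1.26 ± 0.33 from ES cells (adjusted p = 1). With arrays scaled by their median absolute deviation, the difference between iPS cells and MEFs passed (1.21, limma adjusted p = 0.0102). It stayed at 1.25 when either ES line was left out, with the spread then taken from the MEF lines alone. Against V6.5 alone, iPS cells differed by -1.55, with no spread measured within either group.

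Tfap2c had 1.05 in E14, 1.42 in V6.5, 0.17 in both MEF lines and 1.14 in iPS cells. Its iPS value lay within the range of the ES lines. MEFs minus ES cells was -1.06 ± 0.22 (limma adjusted p = 0.0232), and iPS cells were 0.97 ± 0.27 above MEFs (adjusted p = 0.154). This second difference passed with arrays scaled by their median absolute deviation (1.21, adjusted p = 0.00364). It stayed at 0.97 when either ES line was left out, with the spread then taken from the MEF lines alone. The call between MEFs and ES cells was lost without V6.5 (-0.88, adjusted p = 0.0833), without either MEF line (adjusted p = 0.137 and 0.187), with a window of 500 bp (-1.01, adjusted p = 0.0585), with the median of the probes (-0.83, adjusted p = 0.105) and with normexp (-0.30, adjusted p = 0.14).

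Both ES lines were marked at 4 members (Gata3, Ets2, Plet1 and Tfap2c), against 46.5% of all promoters, the iPS line at 3, against 47.4%, and both MEF lines at 2, against 48.8%. Gata3 and Ets2 were the members marked in all 5 lines, as were 40.6% of all promoters. Gata3 read 1.47 in E14, 1.88 in V6.5, 1.91 in MEF1, 2.44 in MEF2 and 1.89 in iPS cells. Both MEF lines were above both ES lines, by 0.50 ± 0.25 on average (limma adjusted p = 0.421). Ets2 read 1.25, 1.66, 1.31, 1.70 and 1.66 in the same order, with ES and MEF lines overlapping.

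Gata2 read 0.49 in E14, 0.90 in V6.5, 0.99 in MEF1, 1.08 in MEF2 and 0.76 in iPS cells. Both MEF lines lay above both ES lines, as for its RNA, by 0.34 ± 0.23 (limma adjusted p = 0.638). With normexp the differences of Gata2 and Gata3 were 0.76 and 1.26 and were called (adjusted p = 0.0106 and 0.0076). With a window of 500 bp Gata2 was 0.10 (adjusted p = 0.931), and without MEF2 Gata3 was 0.24 (adjusted p = 0.999).

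At Cdx2 the ratios were 0.59 in E14, 0.71 in V6.5, -0.20 in MEF1, 0.17 in MEF2 and 0.47 in iPS cells. Ascl2 gave 0.82, 0.84, 0.27, 0.29 and 0.45 in the same order, and Hand1 0.23, 0.34, -0.29, -0.22 and 0.34. In all 3 genes both MEF lines lay below both ES lines, with differences of -0.66 ± 0.22, -0.55 ± 0.20 and -0.54 ± 0.21, and none was called (limma adjusted p = 0.145, 0.2 and 0.215). With each array scaled by its median absolute deviation all 3 passed (adjusted p = 0.0156 for Cdx2, 0.0191 for Ascl2 and 0.032 for Hand1). Hand1 also passed with a window of 500 bp (-0.91, adjusted p = 0.0491) and with normexp (-0.42, adjusted p = 0.05). Other settings gave smaller differences. With normexp Cdx2 was -0.20 (adjusted p = 0.367) and Ascl2 -0.05 (0.813), and with the median of the probes Ascl2 was -0.28 (0.601) and Hand1 -0.32 (0.554). Elf5 lay between -0.40 and -0.01 and Gcm1 between -0.69 and -0.10 over the 5 lines, so neither reached the centre of its arrays.

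Counted without a test, 7 of the 10 members were lower in both MEF lines than in both ES lines, as were 25.6% of all promoters, and 2, Gata2 and Gata3, were higher, as were 14.8%. At 1 member, Plet1, both MEF lines were at least 1 log2 unit lower than both ES lines, as at 1.28% of all promoters. The median difference over the members was -0.46, against -0.03 over all promoters.

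H3K27me3 stood high among all promoters at Cdx2, Ascl2, Tfap2c and Hand1 in each of the 5 lines, and Plet1 was the member called between MEFs and ES cells. At these 4 of the 10 promoters the mark stood at or above the 90th percentile of all promoters in all 5 lines, as it did at 4.05% of promoters, a threshold chosen after the values were seen. Between MEFs and ES cells limma called 1 of the 10, higher in MEFs, at an adjusted p under 0.05, where 12% of all promoters were called and 4.54% were called higher. A ratio of at least 1 was reached at 1 member in both ES lines (Gata3), against 2.71% of all promoters, and at 6 in V6.5, against 12.7%. Both MEF lines reached it at 3 members (Cdx2, Tfap2c and Ascl2), against 6.48%, and the iPS line at 5, against 8.82%. Between iPS cells and MEFs, and between iPS and ES cells, limma called none of the 10 and 0% of all promoters. No member had an unadjusted p under 0.05 in either comparison, against 20.1% and 1.94% of all promoters.

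Cdx2 had H3K27me3 ratios of 0.93 in E14, 2.23 in V6.5, 1.35 in MEF1, 1.71 in MEF2 and 1.60 in iPS cells. In E14, where ratios of this mark are compressed, the Cdx2 promoter still stood at percentile 96.2, and it lay between 97.4 and 99.4 in the other 4 lines. Ascl2 had 0.84, 1.83, 1.36, 1.73 and 1.40 in the same order, at percentiles from 94.5 to 98.1. Tfap2c had 0.76, 1.38, 1.03, 1.44 and 0.96, at percentiles from 90.2 to 95.2, and Hand1 0.66, 1.40, 0.96, 1.35 and 1.06, at percentiles from 90 to 94.2. In these 4 genes the MEF lines fell within or near the range of the ES lines, and MEFs minus ES cells ranged from -0.05 to 0.21 log2 units, with standard errors from 0.26 to 0.44. The sign depended on the ES line. Without E14 the differences were -0.70 for Cdx2, -0.29 for Ascl2, -0.24 for Hand1 and -0.15 for Tfap2c. Without V6.5 they were 0.61, 0.70, 0.49 and 0.47 in the same order. With normexp Tfap2c was called (0.69, adjusted p = 0.0432).

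Gata3 had the largest difference of the 10 between MEFs and ES cells, with 1.15 in E14, 2.55 in V6.5, 0.47 in MEF1, 0.83 in MEF2 and 1.64 in iPS cells. Both MEF lines lay below the other 3, and its percentile was 98.7 and 99.7 in the ES lines, 80.6 and 85.6 in the MEF lines and 98.6 in the iPS line. The difference of -1.20 ± 0.46 was not called (limma adjusted p = 0.16). With arrays scaled by their median absolute deviation it passed (-1.55, adjusted p = 0.00238), and with normexp it was smaller (-0.45, adjusted p = 0.362). With V6.5 as the only ES line it was -1.90, and with E14 as the only one -0.50. Gata2 had 0.64, 1.64, 0.53, 0.89 and 1.15 in the same order of lines, and the difference of -0.43 ± 0.35 had an adjusted p of 0.48 in limma. For Gata2 this difference was -0.93 without E14, 0.07 without V6.5 and 0.07 with normexp, and it was called with scaling (-0.68, adjusted p = 0.0347), so its direction is not settled.

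Plet1 ran the other way, with -0.06 in E14, -0.37 in V6.5, 0.46 in MEF1, 0.45 in MEF2 and 0.03 in iPS cells. Both MEF lines were above the other 3, by 0.67 ± 0.15 over the ES lines (limma adjusted p = 0.0488), but no line was marked. This call lay at the threshold and was lost without V6.5 (adjusted p = 0.0928), without either MEF line (0.16 and 0.241), with a window of 500 bp (0.0594) and with the median of the probes (0.0878).

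Elf5 had low ratios of similar size in every line, from 0.40 in E14 to 0.67 in MEF1. Ets2 had 0.17, 0.23, -0.01, -0.24 and 0.27, and Gcm1 0.01, -0.12, 0.24, 0.19 and 0.10, from E14 to iPS cells. Over the members the median difference between MEFs and ES cells was 0.14, against -0.04 over all promoters.

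Both marks reached a ratio of 1 at Gata3 in both ES lines, as at 0.836% of all promoters. V6.5 alone had this at Gata3 and Tfap2c, against 5.09% of all promoters. In iPS cells Gata3 was again marked by both, against 3.01%, and in MEFs no member was, against 0.617%.

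The probes of every member spanned at least -5026 to 2282, and positions are given in bp from the start, negative upstream. At Cdx2, 32 of 43 probes had a mean H3K27me3 ratio of at least 1 in ES cells, 31 in MEFs and 31 in iPS cells, and these probes ran from -5447 to 2282. H3K4me3 reached 1 at 7 of these 43 probes in ES cells, from -648 to 1856, and at 9 in iPS cells, from -4096 to 2282. In the mean of the MEF lines it did so at none. MEF2 alone read 1.02 at -648, 1.30 at 1690 and 1.31 at 1856, where MEF1 read -0.31, 0.22 and 0.19. Cdx2 thus had a broad stretch of H3K27me3 in all 3 cell types, with H3K4me3 at fewer of its probes in ES and iPS cells.

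Hand1 was similar in breadth, with 30 of 44 probes at or above 1 for H3K27me3 in ES cells and 31 in both MEFs and iPS cells. Its highest ratios were not at the start. Beyond 3000 bp upstream the mean over 15 probes was 1.55 in E14, 2.34 in V6.5, 2.10 in MEF1, 3.06 in MEF2 and 2.45 in iPS cells. For H3K4me3, 9 of the 44 probes reached 1 in ES cells, 10 in iPS cells and none in MEFs.

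Tfap2c had H3K4me3 at or above 1 at 19 of 43 probes in ES cells, at 19 in iPS cells and at none in MEFs. H3K27me3 reached 1 at 18, 18 and 25 of these probes in ES, iPS and MEF cells. Beyond 3000 bp upstream, its 13 probes averaged 0.95 and 1.36 for H3K27me3 in the ES lines, 1.85 and 2.19 in the MEF lines and 1.32 in iPS cells. Both MEF lines were above the other 3 there, while near the start they were not.

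Along Plet1, H3K4me3 in ES cells reached 1 at 10 of 22 probes between -243 and 2081, with a highest mean of 2.85 at 768. In iPS cells 4 probes reached 1, from 768 to 2081, with a highest ratio of 1.44. In MEFs none did, and the highest mean was -0.22. Over the 7 probes in the first 1000 bp of the gene the ratios were 1.67 in E14, 2.35 in V6.5, -0.63 in MEF1, -1.01 in MEF2 and 0.62 in iPS cells. H3K27me3 reached 1 at no probe of Plet1 in any cell type.

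At Gata3 the highest H3K4me3 probe was the same in all cell types, at -1424, with 3.38 in ES cells, 4.37 in MEFs and 3.52 in iPS cells. Over the 4 probes between -946 and -270, H3K27me3 was 1.08 in E14 and 2.63 in V6.5, 0.18 in MEF1 and 0.44 in MEF2, and 1.65 in iPS cells. Beyond 3000 bp upstream the ratios were 1.12, 2.63, 1.43, 1.91 and 1.73 in the same order. The MEF lines thus lay below the ES lines near the start, and between them beyond 3000 bp upstream.

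At Gata2 the highest H3K4me3 probe stood at -800 in ES and iPS cells (2.14 and 2.67) and at 423 in MEFs (2.95). Over the 4 probes in its first 1000 bp, H3K4me3 was 0.49, 1.24, 1.51, 1.83 and 1.23 from E14 to iPS cells, and H3K27me3 was 0.97, 2.14, 0.42, 0.93 and 1.52. At Ets2, H3K4me3 reached 1 at 11 of 41 probes in ES cells, the outermost at -1134 and 1736. In MEFs it did so at 15, the outermost at -1134 and 2096, and the highest probe was at 858 in all cell types. The probes nearest the start, at -393, -93, 93 and 210, were below 1 in every line. Ascl2 had H3K27me3 at or above 1 at 15 of 30 probes in ES cells, 19 in MEFs and 17 in iPS cells. Elf5 had no probe at 1 for H3K4me3 in any cell type, and 3 of 39 for H3K27me3 in ES cells, 17 in MEFs and 7 in iPS cells. At Gcm1 H3K4me3 reached 1 at 2 of 35 probes in ES and iPS cells, at -5116 and -4910, far upstream of the start, and at none in MEFs.

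**Figure D3:**
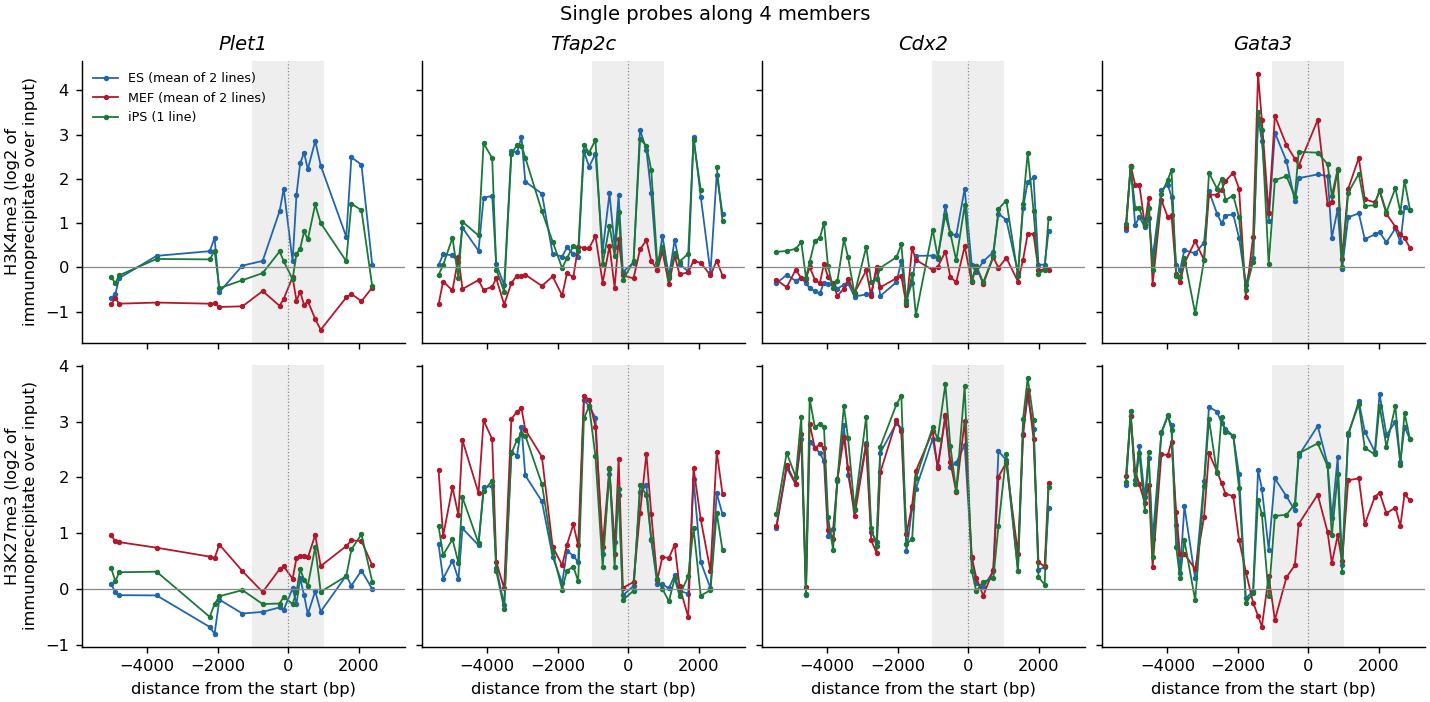
Log2 ratio of H3K4me3 (top) and H3K27me3 (bottom) at each probe by distance from the start in bp, for Plet1, Tfap2c, Cdx2 and Gata3, as the mean of the 2 ES lines, the mean of the 2 MEF lines and the iPS line, with the window of 1000 bp on either side shaded. MEFs lie below ES cells for H3K4me3 along Plet1 and Tfap2c, the 3 H3K27me3 lines of Cdx2 run together, and MEFs dip below ES and iPS cells near the start of Gata3.

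Set side by side, Plet1 and Tfap2c were called lower in MEFs than in ES cells both in H3K4me3 and in RNA. Gata2 had higher values in both, called in RNA but not in H3K4me3 (0.34, limma adjusted p = 0.638). By sign alone, Cdx2 and Hand1 were also lower in both and Gata3 and Ets2 higher in both, with none of these called. The RNA signs of Cdx2 and Gata3 turned on the MEF array used. Ascl2 had a lower value in H3K4me3 (-0.55) and a higher one in RNA (1.12, but 0.15 with normexp), neither of them called. The RNA of these comparisons came from V6.5 and female MEFs, while the promoter values also include E14 and the male MEF line.

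**Figure D4:**
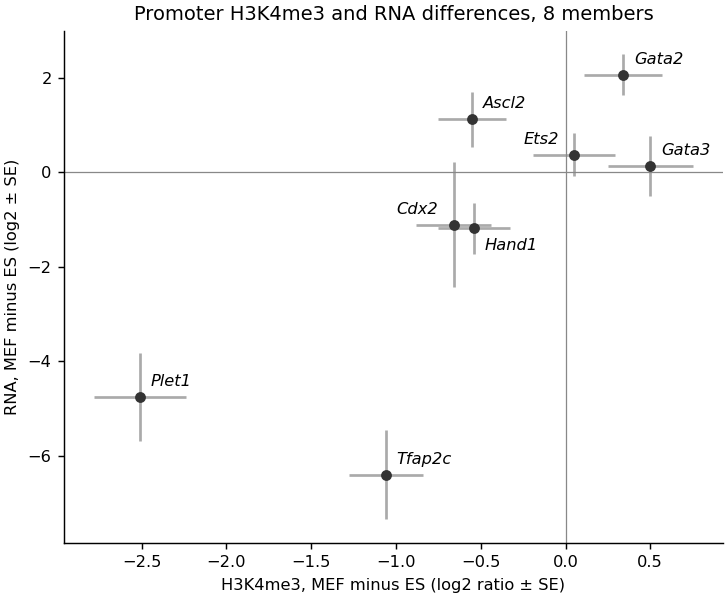
Difference between MEFs and ES cells in promoter H3K4me3 (horizontal axis, log2 ratio) and in RNA (vertical axis, log2) for the 8 members with tested RNA, with standard errors from the limma fits as bars. Plet1 and Tfap2c lie apart at the lower left, at RNA differences of -4.75 and -6.40, and Gata2 is highest at 2.06.

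Other genes of trophoblast stem cells and of the signals that act on them were read from a list of 22. Between MEFs and ES cells 3 of 21 tested were higher and 9 lower in RNA (median -0.34, against -0.11 over all genes), where 15.5% of all genes were higher and 17.3% lower. In iPS cells 10 were higher and 5 lower than in MEFs, where 17.7% of all genes were higher and 16.7% lower. No gene of this list was called between iPS and ES cells by limma, where 5 had an unadjusted p under 0.05, as did 15.5% of all genes. Elf3, an ETS factor of epithelia, was at least 30.5-fold lower in MEFs than in ES cells (limma adjusted p = 0.000773), at 1.34 and 1.14 in ES cells and below background on both MEF arrays. Esrrb and Sox2, which act in trophoblast stem cells and are also among the pluripotency markers, were at least 586-fold and 193-fold lower. Krt8, a keratin of simple epithelia, was also lower, at 4.14 and 4.77 in ES cells and -2.83 and -2.55 in MEFs, with 1 of 2 MEF arrays well above background. Eomes, a T-box factor of trophoblast stem cells, read -1.28 and -0.88 in ES cells, -4.95 and -0.64 in MEFs and -2.13 and -2.42 in iPS cells.

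In H3K4me3, 1 of 20 promoters of this list was higher in MEFs than in ES cells and 5 were lower, where 2.05% and 3.1% of all promoters were. Nr2f2, a nuclear receptor, was the one that rose, by 1.77 ± 0.24 (limma adjusted p = 0.00325), with 0.48 and 0.23 in the ES lines and 1.87 and 2.37 in the MEF lines. Elf3 fell by 1.33, Fgf4, the growth factor that sustains trophoblast stem cells, by 1.21 and Cdh1, the epithelial cadherin, by 1.11. In H3K27me3, 3 of the 20 were higher in MEFs and 3 lower (4.54% and 7.49% of all promoters), among them Cdh1, which rose by 1.28, and Lats2, Id2 and Fgfr2, which fell by 1.34, 1.20 and 1.03. The medians of this list were -0.08 for H3K4me3 and 0.13 for H3K27me3.

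Of 26 genes of placental differentiation 17 could be tested in RNA. Between MEFs and ES cells 1 was higher, Pparg, a nuclear receptor of the labyrinth, and 5 were lower (median -1.67), where 15.5% and 17.3% of all genes were. Phlda2, an imprinted gene that limits placental growth, was lower in MEFs (limma adjusted p = 0.00142), at 4.67 and 5.17 in ES cells, -5.19 and -2.14 in MEFs and 2.90 and 2.77 in iPS cells. The homeobox gene Rhox9 and Gab1, a docking protein of growth factor receptors, were lower as well (adjusted p = 0.00993 and 0.0128). All 3 were well above background on 1 of 2 MEF arrays, so no fold is given. Between iPS cells and MEFs 8 were higher and 2 lower, where 17.7% and 16.7% of all genes were. None was called between iPS and ES cells by limma (0.15% of all genes were), where 3 had an unadjusted p under 0.05, as did 15.5% of all genes. Of 19 promoters of this list, none was called in H3K4me3 between MEFs and ES cells by limma. There 4 had an unadjusted p under 0.05, as did 15.5% of all promoters. In H3K27me3, 1 was higher in MEFs, Synb, a syncytin, and 1 was lower, where 4.54% and 7.49% of all promoters were.

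Among 21 paralogs of the members, 9 could be tested in RNA, and between MEFs and ES cells 2 were higher and 1, Elf3, was lower, where 15.5% and 17.3% of all genes were. Ets1, the paralog of Ets2, was 10.6-fold higher in MEFs (limma adjusted p = 0.00186) and its H3K27me3 difference was -1.13 ± 0.17 (adjusted p = 0.0279). Tfap2a was 4.16-fold higher in MEFs, a call at the threshold (adjusted p = 0.0498). It read -3.50 and -2.49 in ES cells, and -1.74 and -0.14 on the first and duplicate MEF arrays. Dim genes read high on that duplicate, and the call was not tested without it. In H3K27me3, 1 of 19 paralog promoters was called higher in MEFs and 2 lower, where 4.54% and 7.49% of all promoters were. In H3K4me3, 1 of the 19 was higher and 2 were lower, where 2.05% and 3.1% were. Tfap2b was higher by 1.26, while Elf3 was lower by 1.33 and Cdx4 was also lower. Cdx4 read 0.85 and 1.05 in the ES lines, -0.04 and -0.17 in the MEF lines and 1.33 in iPS cells. It also rose between MEFs and iPS cells, by 1.43 ± 0.26 (limma adjusted p = 0.0406), where 0.982% of all promoters were called.

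Markers of other cells were read beside these values. The 10 markers of epidermal and simple epithelium summed to 64.9 and 84.2 times the 75th percentile in ES cells, 1.92 and 6.26 in MEFs and 118 and 122 in iPS cells. Of these, 9 were above background on each ES array and on the first iPS array (Trp63 was not), and 4 and 10 on the MEF arrays. The 10 markers of macrophages and blood summed to 115 and 68.8 in MEFs, all above background on both arrays, against 2.98 to 4.09 on the ES and iPS arrays. Most of the MEF sum came from Lyz2, at levels of 6.62 and 5.77. Between MEFs and ES cells 8 of these 10 were called higher and 1, Laptm5, lower (median 4.87), where 15.5% and 17.3% of all genes were. The 10 markers of extraembryonic endoderm summed to 9.72 and 11.9 in ES cells, 19.9 and 12 in MEFs and 1.7 and 1.57 in iPS cells. Of these 10, 1 was called higher in MEFs than in ES cells, Pdgfra, which also stands in the fibroblast list, and 3 lower, Foxa2, Cubn and Lama1 (median -0.96). On the first MEF array 5 of the 10 were above background. On both ES arrays and the first MEF array Afp and Hnf4a were not above background. The part of such cells in the members' RNA differences was not tested.

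The promoters most like each member were taken by the root mean square difference over 10 values (5 lines and 2 marks). Within the set the closest pair was Cdx2 and Ascl2, at 0.23, followed by Elf5 with Gcm1 and Tfap2c with Ascl2, both at 0.38. Over all promoters, Cdx2 was close to Cyp24a1 (0.10) and Slc32a1 (0.16), and Ascl2 to Rtbdn (0.11), Nmu (0.14) and Lrtm2 (0.14). Tfap2c was close to Qrfprl (0.12) and Ephx4 (0.14), Hand1 to Kcna5, Grid2ip and Apoa5 (0.09 to 0.10) and Gata2 to Pthlh, Lrrc75b and Sgip1 (0.08 to 0.16). Elf5 was closest to Fut2, Tnnt2 and Mc1r, and Gcm1 to Plekha6, Scgb3a1 and Spib, at 0.08 to 0.10. Ets2 had the closest promoter of all, Slc66a2, at 0.06, with Arl10 and Myo10 next. The nearest promoters to Plet1 were F2, Apoc1 and Syne4 (0.27 to 0.36) and those to Gata3 were Gnai1, Nmnat2 and Ccnd2 (0.24 to 0.29), so these 2 members had the least close neighbours of the 10.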

How the data were processed

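Promoter arrays carried immunoprecipitate (Cy5) and input (Cy3) and expression arrays 1 colour. Per the file headers, the authors deposited intensity per spot, background-subtracted and, on promoter arrays, dye-normalized by Agilent Feature Extraction (9.1.3.1 for promoter and 9.5.1.1 for expression arrays). The deposited value tables hold log10 (Cy5/Cy3) for promoter arrays and intensity for expression arrays. For the MEF H3K27me3 arrays the protocol gives Cy3 and the label field Cy5 as the dye of the immunoprecipitate. The field was followed, as these arrays correlated positively with the others.

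From these, the log2 ratio of Cy5 over Cy3 was centred on each array's median and averaged over probes within 1000 bp of the start, which was placed between promoter and inside probes (at least 3 probes, gap at most 1000 bp). Expression was log2 intensity minus the array's 75th percentile. Of 41174 probes, 25580 were kept. These were well above background on both ES arrays, on both MEF arrays or on the first iPS array, as the iPS duplicate had no flags. The kept probe with the highest mean stood for a gene. The ES columns of the deposited values match scanner files listed for MEFs, and the MEF columns those listed for ES cells (4 files). In addition, 1 file filed under the iPS duplicate matched no column and was left out, so that array took the background limit of the other iPS array. The duplicate arrays' deviations from their first arrays correlated at -0.031, -0.151 and 0.049 between groups, so array numbers were not used as pairs.

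limma 3.58.1 (lmFit, eBayes) in R 4.3.3 was fitted to all 6 expression arrays (3 residual degrees of freedom) and to the 5 lines of each mark (2), with Benjamini-Hochberg adjustment over all features. The script was tested on simulated data. "At least" marks a fold against the background limit of a group whose arrays were all dim. The number of arrays limits the precision. Alternatives were other normalisations, windows, filters and probe summaries, the slide as a block, fewer groups and each array or line left out. For RNA, normexp was followed by quantile normalisation and left out the iPS duplicate. All members are named, and of other lists up to 4 called genes a comparison with the largest change. Eomes, Laptm5 and the marker genes not above background were chosen after their values were seen. The members and lists were chosen with earlier results of these data known. Symbols and sequences come from RefSeq tables (GRCm38.p6). A few genes that the rule would name are not reported here.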

Additional observations from a re-analysis of the deposited data

How the results depend on the processing

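Between MEFs and ES cells 3 members were called in RNA, and the count fell to 1 with the mean of each gene's probes. Leaving out each array in turn it ran from 1 to 5. Between iPS cells and MEFs the same omissions gave 2 to 6 against 3, and between iPS and ES cells 0 to 2 against 0. With the arrays of the 2 groups alone, 2 members, Gata2 and Gata3, were called between iPS and ES cells. Cdx2 RNA reversed without the first MEF array, to 1.19 between MEFs and ES cells and -1.39 between iPS cells and MEFs, and without the duplicate MEF array it was -3.41 and 3.2. With the slide as a replicate block, 3, 2 and 0 members were called in the 3 comparisons, and Hand1 lost its call between iPS cells and MEFs (adjusted p = 0.0533 in limma). For H3K4me3 between MEFs and ES cells the count of 2 became 1 with the median of the probes and with the rule of both lines at least 1 log2 unit apart, 4 with normexp and 5 with arrays scaled by their median absolute deviation. Leaving out each line gave 1 to 2. Scaling also gave 2 between iPS cells and MEFs, where omissions gave 0 to 2, and omissions gave 0 to 1 between iPS and ES cells. For H3K27me3 between MEFs and ES cells the count of 1 became 0 with a window of 500 bp, with the median of the probes and with the rule of both lines apart, 2 with normexp and 4 with scaling, and ran from 0 to 2 without each line. Scaling gave 1 between iPS cells and MEFs. The H3K4me3 call of Plet1 and the RNA calls of Tfap2c were kept under every alternative run. Each omission left 1 array or line in its group, so its p-values take their spread from the other groups. The causes of these changes were not tested. With 2 arrays or lines a group, and 1 iPS line, the fits rest on 2 or 3 residual degrees of freedom, and levels near the background limit cannot be ordered.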
